A study of Mus musculus with 26 samples.

Results

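In RAW264.7 macrophages, 607 stretches of chromatin carried acetylated lysine 27 of histone H3 (H3K27ac) in every library of a line making HA-tagged Nur77 and in no library of a line making GFP. They were found by merging the H3K27ac regions of 8 libraries wherever at least 1 bp was shared, which gave 77715 merged regions, and keeping those called in all 4 libraries of the Nur77 line and in none of the 4 libraries of the GFP line. The regions were chosen by H3K27ac calls in the libraries of both lines, so those calls are a description and no H3K27ac difference between the lines is tested. Of the 607 regions, 2 lie on an unplaced scaffold of chromosome 1 and are not described further, so the values below are of 605 Nur77-only regions. The same rule turned round gave 594 GFP-only regions on the assembled chromosomes, and 27050 regions were called in all 8 libraries. The order of the first 2 numbers depends on the length of the lists: with lists of equal length there were 483 Nur77-only regions, which kept 442 of the 605, and 681 GFP-only regions.

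The series measured HA-Nur77, RNA polymerase II (Pol II) and H3K27ac by ChIP-seq in these cells, a mouse macrophage line. Cells of 2 stable lines, one with a doxycycline-inducible HA-tagged Nur77 and one with an inducible GFP, all received 50 ng/ml doxycycline for 18 h and were then left untreated or given 500 ng/ml LPS, a bacterial cell wall component, for 1 h. H3K27ac and Pol II were mapped in both lines (n = 2 per line and condition), HA in the Nur77 line alone (n = 3 per condition), and input chromatin once per line and condition. Each construct is carried by 1 stable line per the labels, so what the construct does and what otherwise sets the lines apart cannot be told apart. The labels do not say that replicates were separate cultures, so p-values measure the spread between these libraries, which may be technical. A bulk library cannot separate a change in the share of cells carrying a mark from a change per cell. Mapped tags ran from 22.3 to 28.4 M for H3K27ac, 11.9 to 23.1 M for Pol II and 6.41 to 18.2 M for HA. All 8 macrophage markers examined (Spi1, Csf1r, Adgre1, Cd68, Itgam, Lyz2, Cd14 and Fcer1g) lay under H3K27ac and Pol II in every library, against 3 of 16 markers of non-blood cells. Other lists were covered in part or nearly in full. H3K27ac and Pol II in every library lay over 10 and 11 of 12 osteoclast program genes. For lymphoid and other blood lineages it was 10 and 11 of 20, and for cell adhesion and guidance of neurons 9 and 6 of 30. Regions on chromosome 12 differed between the lines as a whole, as described with the positions of the regions below.

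H3K27ac marks active enhancers and promoters and is written by the acetyltransferases p300 and CBP. Nur77, encoded by Nr4a1, is an orphan nuclear receptor and an immediate-early gene of macrophages. It binds as a monomer to the NGFI-B response element (NBRE, AAAGGTCA), which extends the nuclear receptor half-site AGGTCA. Pol II is found at promoters, along transcribed genes and at many active enhancers.

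Only 28 of the 605 Nur77-only regions (4.63%) touched a promoter, taken as 250 bases before to 50 bases after a RefSeq start site, against 31.2% of the regions called in all 8 libraries and 4.38% of the GFP-only regions. Those 28 regions held 32 promoters. The 250 upstream bases of 3 of them follow, 5′ to 3′ (RefSeq, GRCm38.p6, the patched release of mm10), chosen because the Nur77-only region covers all of them. Apold1 and Treml4 are the named genes whose promoters also lay under an HA peak in all 6 libraries, and Arhgap15 is the strongest covered promoter of a named gene. Capitals mark AGGTCA or its reverse complement, of which the Apold1 stretch has none.
Apold1, chr6:134981751-134982000, + strand: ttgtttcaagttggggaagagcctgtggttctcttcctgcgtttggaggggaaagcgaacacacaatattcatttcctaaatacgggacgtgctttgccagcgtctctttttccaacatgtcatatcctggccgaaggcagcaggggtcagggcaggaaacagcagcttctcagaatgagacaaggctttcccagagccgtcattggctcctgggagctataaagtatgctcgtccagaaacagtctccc
Treml4, chr17:48264045-48264294, + strand: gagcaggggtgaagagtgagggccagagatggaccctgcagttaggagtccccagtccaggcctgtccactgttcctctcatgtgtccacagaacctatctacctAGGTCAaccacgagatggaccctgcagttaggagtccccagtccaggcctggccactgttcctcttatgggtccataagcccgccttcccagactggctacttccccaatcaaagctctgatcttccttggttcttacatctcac
Arhgap15, chr2:43748574-43748823, + strand: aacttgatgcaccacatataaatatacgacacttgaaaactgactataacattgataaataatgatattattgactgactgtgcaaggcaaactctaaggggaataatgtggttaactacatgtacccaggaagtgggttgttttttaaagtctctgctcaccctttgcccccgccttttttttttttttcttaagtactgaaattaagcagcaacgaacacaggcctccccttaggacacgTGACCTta
Apold1 encodes an apolipoprotein L domain protein, Treml4 a receptor of myeloid cells and Arhgap15 a GTPase-activating protein for Rac. Searched on both strands of the 250 upstream bases, the NBRE letters AAAGGTCA occurred in 0 of the 32 promoters and in 1.34% of all 32851 promoters. The half-site AGGTCA, which the NBRE contains, occurred in 6 of 32, those of A530040E14Rik, Arhgap15, Gm5901, Syt8, Zic5 and Treml4, and in 14.02% of all promoters. The AP-1 letters TGANTCA occurred in 6 of 32, among them Gstm5, Cnksr1 and Syt8, and in 6.75% of all promoters. These matches describe the letters of a promoter window and not binding.

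Most Nur77-only regions were short and weak. Values are the deposited normalized tags, read tags per 10 M mapped tags summed over a region. The mean over the 4 Nur77 libraries ran from 6.28 to 190.9 with a median of 12.6, against a median of 84.1 for regions called in all 8 libraries. The median width was 1399 bp, against 3083 bp. A region missing from the GFP lists is one that was not called there, not one at 0, because the weakest called regions of the GFP libraries held 4.98 to 5.52 tags. The 3 weakest Nur77-only regions, near Gm46562, in Cdadc1 and in Itgb3bp, had means of 6.38, 6.34 and 6.28. Just outside the rule stood 661 regions called in all 4 Nur77 libraries and 1 GFP library, with medians of 13.3 tags in the Nur77 libraries and 7.69 in the 1 GFP library. The strongest of those lay over Rab11fip3, near Ptgis and over Elk3, with Nur77 means of 121.0, 108.8 and 97.5 and GFP values of 16.9, 8.05 and 6.63. A further 1121 regions were called in 3 Nur77 libraries and no GFP library.

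Of the 605 regions, 499 (82.5%) overlapped a gene extended by 1 kb, 95 had the nearest gene within 50 kb and 11 had none that near. The share over a gene was 83.7% for regions called in all 8 libraries and 62.3% for GFP-only regions. Nur77-only regions also lay nearer to shared H3K27ac, with a median distance of 9315 bp to the closest region called in all 8 libraries, against 25489 bp for GFP-only regions. For 316 of the 605 that distance was at most 10 kb, and for 61 it was over 50 kb. Regions called in input chromatin overlapped 36 of the 605 (5.95%), against 16.4% of regions called in all 8 libraries and 8.42% of GFP-only regions.

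The strongest Nur77-only region covered the J segments of the immunoglobulin heavy chain locus, Igh (chr12:113423814-113431011, mm10). Its H3K27ac was 259.1 and 265.4 tags in the 2 untreated Nur77 libraries and 111.3 and 127.8 after LPS. The untreated libraries were both above the LPS libraries. This region overlapped one called in the input of GFP cells after LPS, and it is 1 of 12 Nur77-only regions on chromosome 12. The second lay near Vmn1r61, a vomeronasal receptor gene (chr7:5615047-5618290), at 138.9 and 128.9 tags untreated and 123.2 and 134.1 after LPS, where the conditions overlapped. The third lay over Zic5, a zinc finger transcription factor gene (chr14:122461860-122465641), at 160.4 and 181.2 tags untreated and 47.9 and 79.0 after LPS. In the plot of the 10 strongest regions, 8 were higher in both untreated libraries than in both LPS libraries. On these deposited tags that held for 201 of all 605 Nur77-only regions (33.2%) and for 56% of all tested H3K27ac regions. After scaling between libraries it held for 7 of the 10, 127 of the 605 (21%) and 38% of all tested, and the reverse held for 219 of the 605 (36.2%).

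The others of the 10 strongest lay in Fbxw8, which encodes the F-box protein of a ubiquitin ligase (mean 88.4), on chromosome 5 with no gene within 50 kb (79.6), in Rb1 over Mir687 (67.2), in Arhgef33 (64.3), near Gm23845 (63.3), in Gm31108 (62.7) and in Osbpl3, which encodes an oxysterol-binding protein (62.2). In the region of Rb1, the retinoblastoma gene (chr14:73199868-73205858), H3K27ac was 117.0 and 96.4 tags untreated and 41.0 and 14.4 after LPS. The region without a gene (chr5:53469913-53476415) was at 82.0 and 40.8 tags untreated and 83.5 and 112.1 after LPS, the reverse order to Rb1. Both carried an HA peak in all 6 HA libraries.

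**Figure D1:**
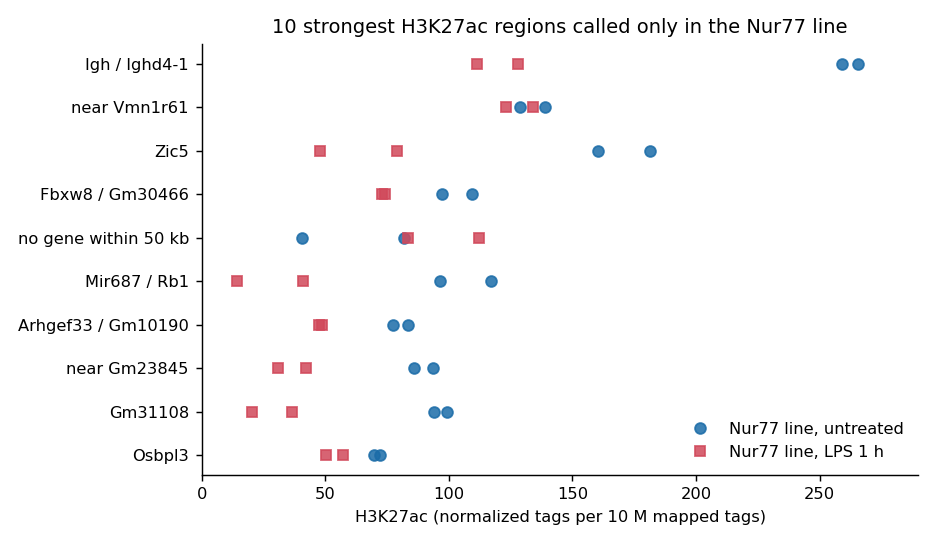
H3K27ac in normalized tags per 10 M mapped tags (x axis) in each library of the Nur77 line, for the 10 strongest Nur77-only regions (y axis, named by gene), untreated (circles) and after LPS for 1 h (squares). The Igh region reaches 265.4 tags untreated, and the LPS libraries lie below the untreated ones for 8 of the 10 regions, which on these tags, before any further scaling, holds for 201 of all 605.

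Few Nur77-only regions lay over or near genes of the 12 lists examined. Srf, the serum response factor gene, was the 1 of 26 immediate-early genes outside the AP-1 family with a Nur77-only region, which also lay over Cul9 and touched its promoter. Il10, which encodes the anti-inflammatory cytokine IL-10, was the 1 of 27 LPS-induced cytokine and chemokine genes. Tnip3, an NF-kB feedback gene, was 1 of 24, the scavenger receptor gene Msr1 was 1 of 26 macrophage lineage genes, and Sdha, a subunit of succinate dehydrogenase, was 1 of 15 housekeeping genes. No Nur77-only region lay over or near a gene of the AP-1 family (14 genes), chemokine receptors (12), the osteoclast program (12), lysosome and lipid handling (22), cell adhesion and guidance of neurons (30), lymphoid and other blood lineages (20) or other cell types (16). These 5 regions were weak, with mean H3K27ac of 10.3 tags at Srf, 9.32 at Il10, 8.78 at Msr1, 8.12 at Tnip3 and 6.97 at Sdha. In Il10 the region (chr1:131025391-131026686) had 16.4 and 6.01 tags untreated and 6.94 and 7.92 after LPS, values that overlap, and an HA peak in all 6 libraries at 127.1, 75.6 and 40.9 tags untreated and 153.7, 96.4 and 62.2 after LPS. The other 4 had no HA peak in any library.

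HA-Nur77 occupied a minority of the Nur77-only regions. An HA peak called in all 6 libraries overlapped 96 of the 605 (15.9%), against 12.9% of all 77588 merged H3K27ac regions on the assembled chromosomes, 31.1% of those called in all 8 libraries and 3.20% of GFP-only regions. Widths differ between these sets, and per Mb of region there were 104.5 such HA peaks in Nur77-only, 72.6 in shared and 21.9 in GFP-only regions. Among regions up to 2 kb wide, 13.0% of Nur77-only, 17.7% of shared and 3.35% of GFP-only regions had one. An HA peak in at least 1 library overlapped 225 (37.2%), so 380 Nur77-only regions had none in any. The share with HA in all 6 libraries was 40 of the 100 strongest Nur77-only regions and 11.1% of the other 505. HA was measured in the Nur77 line alone, and its level in GFP cells was not measured.

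Where HA was present its level was close to that elsewhere, with a median over the 96 regions of 61.1 tags, against 51.3 over all 11226 HA regions called in all 6 libraries. The highest HA levels were near Gm4968 (chr6:127253693-127254709), in Fbxw8, near Cpm, which encodes carboxypeptidase M, in Cblb, a ubiquitin ligase gene, and near Gm42194. Near Gm4968, HA was 695.3, 444.8 and 345.2 tags untreated and 369.0, 231.7 and 160.0 after LPS. In Fbxw8 (chr5:118067387-118068403) it was 424.1, 228.8 and 287.7 untreated and 488.0, 216.6 and 287.7 after LPS. Near Gm4968 the LPS values were lower in each same-numbered pair, a pairing the labels do not give. The conditions still overlapped there, at 369.0 after LPS and 345.2 untreated, and the fall did not pass (limma adjusted p = 0.068). In Fbxw8 the conditions overlapped as well. The mean was 346 ± 124 (SD, n = 3) untreated and 260 ± 79.3 (SD, n = 3) after LPS near Cpm, 334 ± 114 and 198 ± 62.4 (SD, n = 3) in Cblb, and 211 ± 101 and 287 ± 119 (SD, n = 3) near Gm42194.

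The next comparison asked whether LPS changed HA-Nur77 at these regions. HA tended to lower values, with 70 of 96 regions below 0 on the log2 scale and a median log2 change of -0.48, against -0.01 over all tested HA regions. In limma with Benjamini-Hochberg adjustment over all HA regions, 5 fell and 1 rose, against a background of 1.35% called lower and 3.29% called higher (4.64% in either direction). In Slc39a11, a zinc transporter gene (chr11:113588544-113589569), HA was 161.4, 120.3 and 74.5 tags untreated and 30.5, 27 and 24.4 after LPS, with no overlap, and the log2 change was -2.10 ± 0.30 (SE; limma adjusted p = 0.0093). In Rb1 (chr14:73203730-73204746) it was 180.8, 110.5 and 89.6 untreated and 56.6, 28.1 and 22.5 after LPS (log2 change -1.93 ± 0.33, limma adjusted p = 0.015). In Rasgrf2, a Ras exchange factor gene, the log2 change was -1.21 ± 0.27 (limma adjusted p = 0.036). Regions in Mccc2 and Nipbl fell as well.

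The 1 region that rose lay near Gm35464 (chr13:5822911-5823980), at 25.7, 26.0 and 12.5 tags untreated and 89.2, 71.6 and 46.0 after LPS, a log2 change of 1.58 ± 0.25 (limma adjusted p = 0.012). The next in that direction, in Gm36752 and in Ift80, a gene of intraflagellar transport, did not pass, with log2 changes of 0.85 ± 0.31 and 0.77 ± 0.31 (limma adjusted p = 0.15 and 0.18). Same-numbered HA libraries deviated together, and with the replicate number as a block 50 of the 96 fell and 11 rose, against 20% lower and 20.4% higher (40.4% in either direction) of all HA regions under the same block. Single libraries moved the count. It was 0 without untreated replicate 1 or LPS replicate 1 (limma, 21 and 26 at an unadjusted p under 0.05), 12 without untreated replicate 2, 4 without LPS replicate 2, 2 without untreated replicate 3 and 3 without LPS replicate 3. It was also 0 without both replicate 3 libraries, whose called peaks are narrower (limma, 27 at an unadjusted p under 0.05), and 0 with no scaling (limma, 6 at an unadjusted p under 0.05).

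H3K27ac itself was then compared between LPS and untreated libraries of the Nur77 line, a contrast the rule did not use beyond asking for a call in both conditions. Of the 605 regions, 55 rose and 60 fell in limma at an adjusted p under 0.05, or 115 in all, against 50.3% of all 31090 tested regions (24.9% higher and 25.4% lower). Weak regions were called less often throughout: of the 3594 tested regions with mean tags between the quartiles of the Nur77-only regions, 17.0% were called, 12.4% higher and 4.62% lower. The split depends on the scaling. With no scaling beyond the deposited one, which moves the median log2 change of all tested regions from 0.01 to -0.31, 25 rose and 94 fell, and with tags per kb of called length 101 rose and 37 fell. Without untreated replicate 1 the count called was 66, and without untreated replicate 2 it was 72.

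Among the 5 that rose with the smallest p, the leading region lay near Marcksl1, which encodes a MARCKS-like actin regulator (chr4:129502455-129505693). Its H3K27ac was 7.76 and 10.6 tags untreated and 47.7 and 58.5 after LPS, a log2 change of 2.73 ± 0.27 (SE; limma adjusted p = 4.6e-05). A region over Gm14275 and Gm40008 went from 16.2 and 11.8 to 52.6 and 50.6 tags (log2 change 2.14 ± 0.25, limma adjusted p = 0.00011). In each of these the conditions were far apart compared with the spread of replicates. The regions in 1600002D24Rik, in Sipa1l3, a Rap GTPase-activating protein gene, and in Ddx50, an RNA helicase gene, had log2 changes of 1.82 ± 0.24, 1.14 ± 0.21 and 1.75 ± 0.32. None of these 5 had an HA peak in all 6 libraries.

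The 5 that fell with the smallest p were led by Igh, with a log2 change of -0.80 ± 0.09 (limma adjusted p = 7.8e-05). In Aldh1l1, which encodes a folate enzyme (chr6:90596672-90598803), H3K27ac was 59.8 and 62.2 tags untreated and 8.51 and 11.4 after LPS, a log2 change of -2.20 ± 0.25 (limma adjusted p = 9.5e-05). In Tox2, an HMG-box gene (chr2:163283790-163286223), it was 50.1 and 50.7 untreated and 7.39 and 6.50 after LPS, close to the weakest called level. Marchf1, whose ubiquitin ligase lowers surface MHC class II, had a log2 change of -1.58 ± 0.20, and Nlrc5, the transactivator of MHC class I genes, one of -2.14 ± 0.28. The regions in Aldh1l1, Marchf1 and Nlrc5 carried HA in all 6 libraries.

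Regions with and without HA differed in these counts. Of the 96 with HA in all 6 libraries, 27 fell (28.1%) and 6 rose (6.25%), with a median log2 change of -0.16. Of the 509 others, 33 fell (6.48%) and 49 rose (9.63%), with a median of 0.25. Those with HA were the stronger regions, with a median of 20.1 tags, against 11.3 for regions with no HA peak in any library. Of the other tested H3K27ac regions, 8770 had HA in all 6 libraries, and 30.0% of these fell and 34.3% rose. In the 250 of those 8770 with mean tags between the quartiles of the Nur77-only regions (9.63 and 17.1), 4.00% fell and 13.6% rose. The median of 20.1 tags of the 96 lies above that range, so the 250 are not matched to the 96 in strength. The counts are descriptions and the difference between them was not tested. With no scaling 37 of the 96 and 57 of the 509 fell, and with tags per kb 18 of the 96 and 19 of the 509 fell. With tags per kb 13 of the 96 rose, and their median log2 change was 0.03. Without untreated replicate 1 the 2 counts of falls were 18 and 14, and without untreated replicate 2 they were 16 and 13.

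HA and H3K27ac tended to move together after LPS over these 96 regions. Both log2 changes were below 0 in 51 and above 0 in 19, while HA was below and H3K27ac above 0 in 19 and the reverse held in 7. Across the 96 regions Pearson's r was 0.66 and Spearman's rank correlation 0.61. These are descriptions, since regions are not replicates and every point rests on the same 10 libraries of 1 line. The same values are not given for other H3K27ac regions with HA, so whether this is particular to Nur77-only regions was not tested. In Slc39a11, H3K27ac went from 56.4 and 47.2 tags to 12.3 and 11.4, a log2 change of -1.72 ± 0.24 (limma adjusted p = 0.00041), beside the fall of HA.

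**Figure D2:**
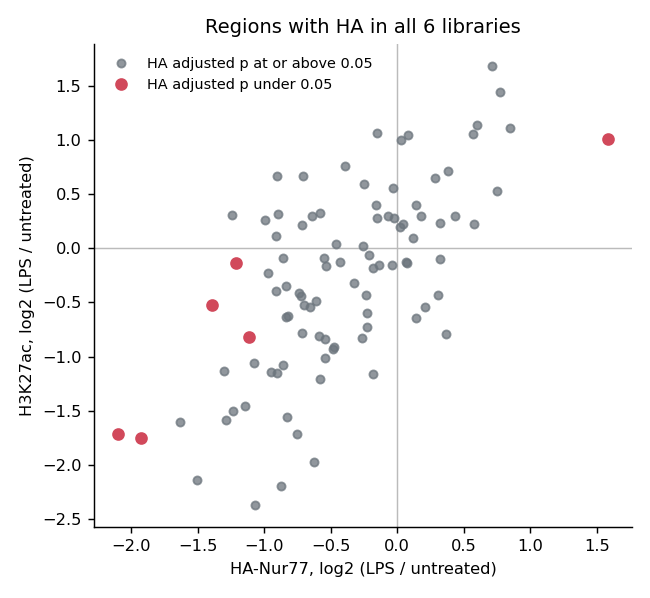
Log2 ratio of LPS to untreated for HA-Nur77 (x axis) and H3K27ac (y axis) in the Nur77 line, one point for each of the 96 Nur77-only regions with HA in all 6 libraries. Red points are the 6 regions whose HA passed limma's adjusted threshold of 0.05, and 51 points lie at the lower left, where both values are below 0.

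Pol II followed the line in which a region was called. Over the 605 Nur77-only regions a Pol II region was called in 102 and 161 of the untreated Nur77 libraries and 112 and 128 of those given LPS, against 51 and 55 untreated and 51 and 57 after LPS in GFP cells. All 4 Nur77 libraries were above all 4 GFP libraries. Over GFP-only regions the order was reversed, with 231 to 262 of 594 in GFP and 44 to 82 in Nur77 libraries. Over shared regions the libraries overlapped, at 68.7% to 76.9% in Nur77 and 73.0% to 77.6% in GFP. In all, 102 Nur77-only regions had Pol II in Nur77 libraries alone, 6 in GFP libraries alone and 85 in both lines, and 412 had none. The fragment length given for Nur77 untreated Pol II replicate 1, the library with 102, is 1550 bp, against 174 to 318 bp in the others.

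**Figure D3:**
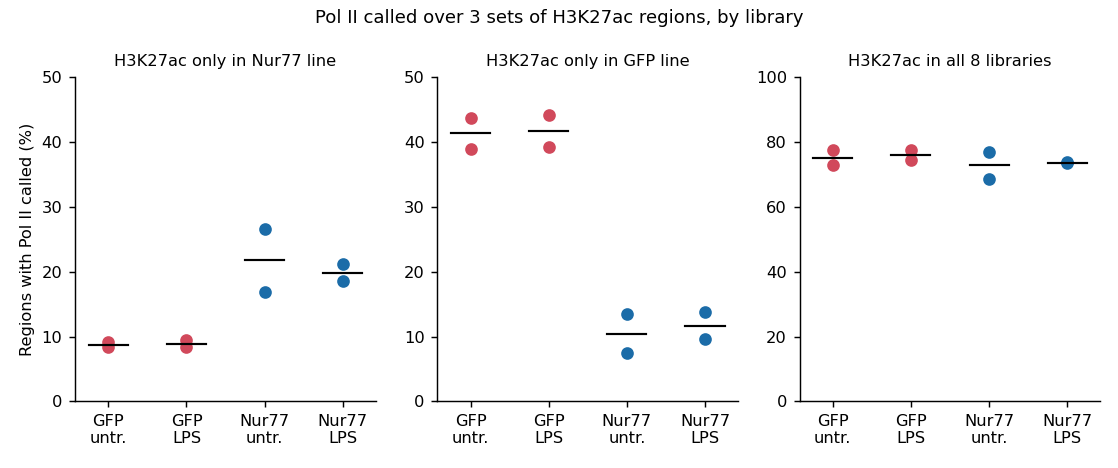
Share of H3K27ac regions (y axis, %) that overlap a Pol II region, in each Pol II library by line and condition (x axis), for regions called only in the Nur77 line, only in the GFP line and in all 8 libraries. Points are libraries and bars their means, red is GFP and blue is Nur77, and the third panel has its own scale. Nur77-only regions reach 16.9% to 26.6% in Nur77 and 8.43% to 9.42% in GFP libraries.

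Pol II was called in all 4 Nur77 and no GFP library over 29 Nur77-only regions (4.79%), against 0.0941% of all merged H3K27ac regions, which is 73 regions. The reverse, all 4 GFP and no Nur77 library, held for 61 of 594 GFP-only regions (10.3%). Without Nur77 untreated replicate 1 the count over Nur77-only regions was 31, and without regions over input it was 28. Near Vmn1r61 Pol II was 307.1 and 116.5 tags untreated and 379.9 and 197.8 after LPS. At Zic5 it was 447.2 and 312.4 untreated and 118.0 and 108.1 after LPS, and H3K27ac there was also lower in both LPS libraries. At Arhgef33 it was 303.6 and 216.6 untreated and 129.0 and 107.6 after LPS. A region in Rasgrf2 (chr13:92029164-92031638) followed with a mean over the 4 libraries of 172 tags, and Ece1, which encodes endothelin-converting enzyme, with 138. The HA region in Rasgrf2 that fell after LPS lies at chr13:91990368-91991399, over a different Nur77-only region. Lrrk2, a kinase gene, had 78.6 and Igh 77.9. Over 3 separate regions of Scn8a, a sodium channel gene, the means were 65.4, 22.1 and 21.5, and over the region at Srf and Cul9 it was 28.1. Only 2 of the 29, near Gm41022 and in Tbc1d7, had HA in all 6 libraries.

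Pol II signal could be compared between lines only where it was called in all 8 libraries. That held for 30 Pol II regions over Nur77-only regions and leaves out the 29 above. Tags are summed over the whole Pol II region, which can be far longer than the H3K27ac region it overlaps (median 1399 bp). In Nur77 cells after LPS the mean called length was 28.8 kb over Marcksl1 and Hdac1, 24.2 kb over Slc35a4 and Sra1 and 0.92 kb at Car4. Genes named for these comparisons are those of the Pol II region. Averaged over both conditions, 4 of the 30 were higher in the Nur77 line and 0 lower in limma (11 at an unadjusted p under 0.05, all higher), against 3.65% higher and 3.41% lower (7.06% in either direction) of all 17059 tested Pol II regions. The median log2 difference was 0.30, against 0.01. At Apold1 (chr6:134980471-134986115) Pol II was 146.9 and 206.0 tags in untreated GFP cells, 27.1 and 42.0 in GFP cells after LPS, 331.3 and 344.7 in untreated Nur77 cells and 85.5 and 93.0 in Nur77 cells after LPS. Within each condition the lines did not overlap, and the difference, Nur77 minus GFP, was 1.12 ± 0.18 (SE; log2, limma adjusted p = 0.017). With tags per kb of called length it was -0.21, since the called stretch was longer in the Nur77 line, at 5.00 kb untreated against 2.59 kb.

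The other regions that passed were near Tbc1d21, a Rab GTPase-activating protein gene, at Car4, which encodes a membrane carbonic anhydrase, and over Apbb3, Slc35a4 and Sra1. Near Tbc1d21 (chr9:58335978-58338611) Pol II was 10.5, 11.5, 6.77 and 9.95 tags in the GFP libraries and 28.9, 66.1, 34.2 and 82.3 in the Nur77 libraries, without overlap (log2 difference 2.19 ± 0.40, limma adjusted p = 0.023), and this region overlapped one called in input. At Car4 the GFP libraries held 9.59 to 13.8 tags and the Nur77 libraries 16.7 to 52.7 (1.22 ± 0.25, limma adjusted p = 0.032). Over Slc35a4 and Sra1 untreated GFP cells had 808.3 and 861.8 tags and untreated Nur77 cells 979.3 and 883.3, while after LPS the values were 1171 and 1150 against 2047 and 2102 (0.45 ± 0.10, limma adjusted p = 0.034). Among untreated libraries alone that last difference was -0.01. The fifth in order, Nsun3, which encodes a mitochondrial tRNA methyltransferase, did not pass at 0.46 ± 0.11 (limma adjusted p = 0.051).

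**Figure D4:**
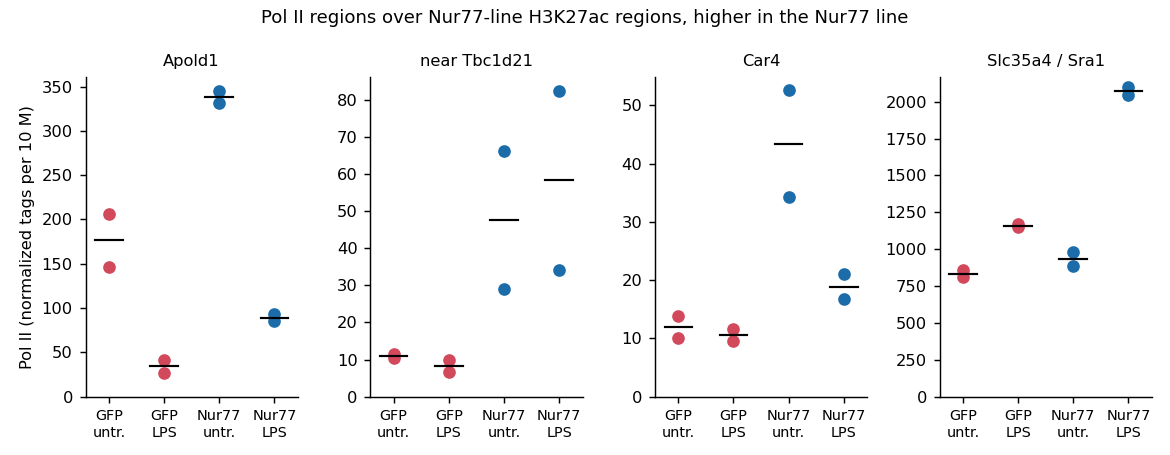
Pol II in normalized tags per 10 M mapped tags (y axis, one scale per panel) for the 4 Pol II regions over Nur77-only H3K27ac regions that passed the line comparison, in GFP (red) and Nur77 (blue) cells untreated (untr.) and after LPS. Points are libraries and bars their means, and at Car4 the Nur77 libraries lie between 16.7 and 52.7 and the GFP libraries between 9.59 and 13.8.

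In the other direction the 5 smallest p belonged to Pol II regions at Egr1, Bmi1 with Commd3, Stxbp3, Ube2g2 and Sh2b1, none of which passed. Their log2 differences were -0.65 ± 0.43, -0.17 ± 0.12, -0.14 ± 0.12, -0.26 ± 0.22 and -0.13 ± 0.13 (SE). No Nur77-only H3K27ac region lay over Egr1 or had it as the nearest gene. At Stxbp3 the sign depended on the setting, with 0.66 for tags per kb (limma adjusted p = 0.074) and 0.06 in untreated libraries alone. With the replicate number as a block, by which same-numbered Pol II libraries deviated together, 11 of the 30 were higher and 0 lower (limma, 18 at an unadjusted p under 0.05), against 10.8% higher and 10.9% lower (21.7% in either direction) of all regions. The count without the block rested on every library. None passed in limma without GFP untreated replicate 1, GFP LPS replicate 1 or Nur77 untreated replicate 2 (9 at an unadjusted p under 0.05 each). It was 1 without Nur77 untreated replicate 1, Nur77 LPS replicate 1 or Nur77 LPS replicate 2, and 2 without GFP untreated replicate 2 or GFP LPS replicate 2. With tags per kb it was 0 (limma, 5 at an unadjusted p under 0.05), and with regions called in at least 4 of the 8 libraries kept and uncalled values set to 0 it was 42 of 94, which counts the absence of a call as signal.

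After LPS in Nur77 cells, 6 of the 30 Pol II regions rose and 1 fell in limma, against 15.2% higher and 15% lower (30.2% in either direction) of all tested. With the replicate block 9 rose and 1 fell, against 24.3% higher and 23.5% lower (47.9% in either direction). The smallest p belonged to the region over Marcksl1 and Hdac1 (log2 change 4.00 ± 0.30, limma adjusted p = 0.00018). Pol II there was 752.7 and 562.5 tags untreated and 7783 and 7880 after LPS. The Nur77-only H3K27ac region near Marcksl1, which lies inside this Pol II region, also rose. Slc35a4 and Sra1 (1.57 ± 0.14) and Dph3 with Oxnad1 (0.90 ± 0.14), a region over one called in input, followed. At Tnip3 Pol II was 391.4 and 489.6 tags untreated and 975.2 and 1907 after LPS (2.05 ± 0.32, limma adjusted p = 0.0032). Apold1 fell, with a log2 change of -1.50 ± 0.26 (limma adjusted p = 0.0047), and the next below 0, at 4930556M19Rik (-1.23 ± 0.52) and Car4 (-0.74 ± 0.36), did not pass. In GFP cells the same fit gave 4 higher and 1 lower, against 18.5% called of all regions. Over Marcksl1 and Hdac1 the change there was 4.38 ± 0.30 and at Apold1 -2.17 ± 0.26. No LPS effect over these regions differed between the lines in limma (0 of 30 at an adjusted p under 0.05, 2 at an unadjusted p under 0.05, and 0 of all 17059). With no scaling, which moves the median change of all Pol II regions to -0.40, 3 rose and 4 fell.

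Along the chromosomes the regions were mostly single. With gaps of at most 100 kb, 131 of the 605 (21.7%) formed 61 clusters, 52 of 2 regions and 9 of 3, against 154 of 594 GFP-only regions (25.9%) with up to 8 in a cluster. Of the clusters of 3, the one with the most summed tags lay at Jak2, the cytokine receptor kinase gene, and near Gm41829 (chr19:29227885-29299462, a span of 71.6 kb), where the 3 regions had means of 18.5, 15.1 and 43.7 tags and 2 of them HA in all 6 libraries. The next were in Smad3, the TGF-beta signal transducer gene (14.2 to 25.1 tags over 43.4 kb), at Rtca, Dbt, Sass6 and Trmt13 on chromosome 3 (9.63 to 30.6 tags), in Gmds, which encodes GDP-mannose dehydratase (15.6 to 17.7 tags), and at Chid1 and Ap2a2, an endocytic adaptor subunit gene (8.30 to 21.2 tags). None of those 4 clusters had a region with HA in all 6 libraries.

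Chromosomes contributed unevenly. Chromosome 12 held 12 Nur77-only regions (1.98%) and 99 GFP-only regions (16.7%), against 4.30% of shared regions. On that chromosome the median log2 difference between the lines, Nur77 minus GFP, was -0.53 for Pol II over 667 tested regions, of which 191 were called lower and 3 higher, and -0.57 for H3K27ac over shared regions. In input chromatin, which has 1 library per line and condition, chromosome 12 held 28.6% and 34.9% of the regions called in GFP cells and 4.35% and 4.25% in Nur77 cells, untreated and after LPS. Its part in the calls was not tested. The share of Nur77-only regions was above the shared one on chromosome 14 (5.79% against 3.61%), chromosome 17 (6.94% against 4.49%) and chromosome 11 (9.75% against 7.42%).

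**Figure D5:**
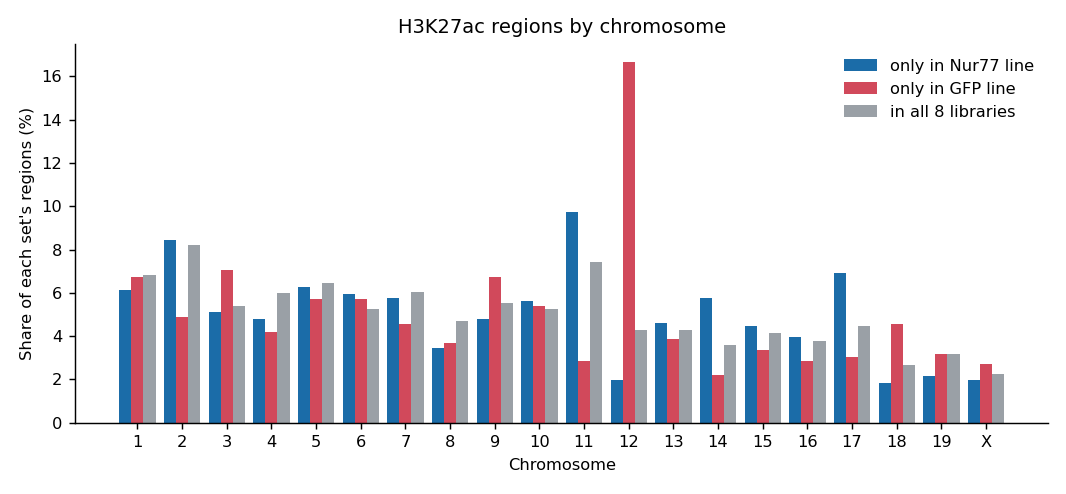
Share of each set's H3K27ac regions (y axis, %) on each chromosome (x axis, Y left out), for regions called only in the Nur77 line (blue), only in the GFP line (red) and in all 8 libraries (grey). Chromosome 12 holds 1.98% of Nur77-only and 16.7% of GFP-only regions, and chromosomes 11, 14 and 17 hold more of the Nur77-only than of the shared regions.

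Within chromosomes, 69 of 285 windows of 10 Mb held no Nur77-only region, the median was 2 and the most 11, on chromosome 11 from 110 to 120 Mb. A stretch chosen after the windows were seen, chromosome 17 from 40 to 90 Mb, held 29, or 4.99 per 100 shared regions, against 2.24 in the genome and 1.90 in the first 40 Mb of that chromosome. There the median log2 difference between the lines was 0.20 for H3K27ac over shared regions and 0.09 for Pol II, against -0.01 and 0.00 in the first 40 Mb. On chromosome 11 from 110 Mb to its end, the 11 Nur77-only regions stood beside medians of 0.23 and 0.11. They made up 3.49 per 100 shared regions, against 2.84 in the first 110 Mb of that chromosome. Other dense windows had line differences of either sign. Chromosome 15 from 20 to 30 Mb held 5, or 8.77 per 100 shared regions, with medians of 0.38 for H3K27ac and 0.41 for Pol II. Chromosome 7 from 140 to 150 Mb held 7, or 7.53 per 100 shared regions, with medians of -0.06 and -0.11. The part of these line differences in the calls was not tested.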

How the data were processed

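ChIP-seq libraries of HA, Pol II, H3K27ac and input were analysed from the peak lists deposited for 26 samples. The submitters' processing notes name mm10, HISAT2 2.1.0 and HOMER (its version is not given in the sources used here). HOMER's factor settings made the HA lists and its histone settings those of H3K27ac and Pol II, per the file headers, whose commands name no input control. The signal used is the authors' deposited normalized tag count per region, scaled to 10 M mapped tags. Other deposited columns were not tested: a peak score, a fraction for how centred the tags are, a fold (ratio) over local signal and its p-value. HA chromatin was also fixed with 2 mM DSG, per the labels' protocols.

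Regions of one target sharing at least 1 bp were merged, with tags summed per library. The plan named a count test if the values were whole counts, which they are not, so limma 3.58.1 (R 4.3.3) was used with a trend, on log2 of normalized tags plus 1, after trimmed-mean scaling (30% of M-values and 5% of A-values), over regions called in every library of a fit. P-values were adjusted over all regions at an FDR of 0.05, and fold changes are on that log2 scale, which understates changes of weak regions. SD is over deposited tags. The fit was tested on simulated data in which libraries varied independently, so that test does not cover libraries that deviate together. Same-numbered libraries deviated together in HA (correlations 0.48 to 0.83 over 3 pairs) and Pol II (0.35 to 0.63, with 6 distinct values, since groups of 2 deviate as mirror images), as measured from the data and not named by the labels. Results with the replicate number as a block are printed for HA after LPS, the Pol II line difference and Pol II after LPS in Nur77 cells, and no such fit was made for GFP cells alone.

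Genes are RefSeq genes of GRCm38.p6, given to a region overlapping the gene span plus 1 kb and otherwise the nearest within 50 kb. The named regions are the 10 strongest, the 5 largest clusters, the 5 highest in HA, those with the smallest p in each direction (5 for the Pol II line contrast and H3K27ac, 3 for the other LPS contrasts) and those at genes of the fixed lists. Other named regions, among them those with Pol II in Nur77 libraries alone, Mccc2 and Nipbl, were chosen after their values were seen. The regions and lists were chosen with earlier results of these data known. Peak sequences are not printed, since no genome was used here. Python 3.11.15 and pandas 2.3.3 were used for the tables.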

Additional observations from a re-analysis of the deposited data

Results flagged for a closer look

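Chromosome 12 held 28.6% of the regions called in the input of untreated GFP cells and 34.9% of those in the input of GFP cells after LPS, against 4.35% and 4.25% in Nur77 cells. Input took no part in choosing the Nur77-only regions, and its share in the GFP line stood above that of the Nur77 line. There is 1 input library per line and condition, so the difference has no replicate check.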

How the results depend on the processing

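The number of Nur77-only regions ran from 738 to 968 when one H3K27ac library was left out. Leaving a library out drops a requirement of the rule, so higher counts follow from the setting itself. Of the 605 regions, 592 to 605 were found again each time. With gaps of up to 500 kb, 249 lay in clusters, and an HA peak in at least 1 library overlapped 225. For HA after LPS, limma called 61 with the replicate block, 0 with no scaling, 12 with uncalled values set to 0, 0 to 12 with one library left out and 0 without both replicate 3 libraries, the last chosen after seeing the data. For the Pol II line difference it called 11 with the replicate block, 0 with tags per kb, 42 with uncalled values set to 0, 0 in untreated and 2 in LPS libraries alone, and 0 to 2 with one library left out. The difference at Apold1 turned to -0.21 with tags per kb, and that over Slc35a4 and Sra1 to -0.015 in untreated libraries, while at Stxbp3, which did not pass, it turned from -0.14 to 0.66 with tags per kb and to 0.06 in untreated libraries. For H3K27ac after LPS it called 47 with uncalled values set to 0 and 66 to 109 with one library left out. Falls among regions with HA in all 6 libraries numbered 16 with uncalled values set to 0 and 16 to 25 with one library left out. Falls among the others numbered 57 with no scaling, 19 with tags per kb, 12 with uncalled values set to 0 and 13 to 30 with one library left out. For Pol II after LPS it called 3 with tags per kb, 11 with uncalled values set to 0 and 4 without regions over input.

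H3K27ac numbers did not pair (correlation 0.053), and the replicate block gave 129 calls in place of 115. Where a group was left with 1 library, that library was assumed to vary like the others. For single named regions, 59 values fell short of the threshold under an alternative and 6 newly passed it. The causes were not tested. What depth limits was not tested either.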
